A study of Mus musculus with 8 samples.

Results

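Khk, Pck1, Fbp1 and G6pc encode enzymes of fructose use and of glucose synthesis, and their expression is described here in mouse small intestine. The 4 genes were taken by gene name from a table of 55421 genes, and all 4 passed the filter on low counts. Total RNA was sequenced from 8 bulk samples of Mus musculus small intestine, labelled with a wild-type genotype. Every sample followed 7 days of exposure to 7% oxygen. The 4 Hypoxia samples came from mice with no further treatment named, and the 4 Hypoxia+Nitrate samples came from mice given 4 mM nitrate in addition. The design has no sample at normal oxygen, and the sources used here give no age, sex or segment of intestine. The labels do not say whether each sample is a separate animal, so p-values here reflect only how these 8 samples scatter, which may be technical. The RNA isolation step in the labels speaks of islets, although tissue and title give small intestine.

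The small intestine meets dietary sugar before any other tissue. Ketohexokinase (Khk) traps fructose as fructose 1-phosphate, and much of a fructose load can be turned into glucose and organic acids in the gut wall before it reaches the liver. Glucose synthesis bypasses the irreversible steps of glycolysis with its own enzymes: phosphoenolpyruvate carboxykinase (Pck1) makes phosphoenolpyruvate from oxaloacetate, fructose bisphosphatase (Fbp1) removes a phosphate from fructose 1,6-bisphosphate, and glucose-6-phosphatase (G6pc), in the membrane of the endoplasmic reticulum, releases free glucose. Liver and kidney are the main sites of that pathway, and enterocytes also express its enzymes.

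On GRCm38, with the GENCODE M21 annotation, Khk (ENSMUSG00000029162) lies on chromosome 5 from 30921431 to 30931248 on the plus strand. Pck1 (ENSMUSG00000027513) lies on chromosome 2 from 173153048 to 173159273, also on the plus strand. Fbp1 (ENSMUSG00000069805) lies on chromosome 13 from 62864753 to 62888282 on the minus strand, and G6pc (ENSMUSG00000078650) on chromosome 11 from 101367561 to 101377903 on the plus strand. No exon of any of the 4 genes overlaps an exon of another annotated gene. The counts are sums per gene, so they do not separate the isoforms of ketohexokinase.

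RefSeq promoter windows (GRCm38.p6, 250 bases before to 50 after the start) were found for all 4 genes, and 3 stretches are shown because they hold the motif letters that differ between the genes. Only bases upstream of every annotated exon are printed, apart from a short site. Searched on both strands, the cAMP response element core ACGTCA was in the Pck1 window alone, and the E-box CACGTG in the Khk window alone. The HNF1 motif GTTAAT was in the windows of Pck1, G6pc and Khk. Capitals mark ACGTCA and GTTAAT or its reverse complement in Pck1 (chr2:173152823-173153047, plus strand) and G6pc (chr11:101367466-101367560, plus strand), and CACGTG in the 30-base site of Khk (chr5:30921476-30921505, plus strand).
Pck1: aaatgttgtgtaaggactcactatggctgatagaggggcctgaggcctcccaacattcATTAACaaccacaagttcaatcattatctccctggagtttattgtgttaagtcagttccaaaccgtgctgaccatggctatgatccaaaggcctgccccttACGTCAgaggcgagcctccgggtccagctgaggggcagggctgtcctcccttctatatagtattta
G6pc: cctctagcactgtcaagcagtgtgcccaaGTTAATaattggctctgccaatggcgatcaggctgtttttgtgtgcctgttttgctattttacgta
Khk: agcgttccccgtCACGTGacaccgttaatc

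The ACGTCA match in Pck1 began 91 bases before the RefSeq start, and the CACGTG match in Khk 71 bases before it. Among 32851 windows of the same length, 7.51% held ACGTCA, 7.15% held CACGTG and 7.1% held GTTAAT. The hypoxia response element core ACGTG, which is contained in CACGTG, was in 19.6% of windows and, of the 4 genes, only in Khk. The TATA box TATAAA (13.6% of windows) was in G6pc alone, 29 bases before the start, and the HNF4-type repeat CAAAGTCCA (0.475% of windows) in none of the 4. The Fbp1 window held none of these 6 motifs. A match is a run of letters and was not tested as a binding site.

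The libraries of the groups differed in more than the 4 genes. Total counts ran from 5345377 to 21835865 in Hypoxia and from 8662279 to 63943036 in Hypoxia+Nitrate. A background density was taken from 1470 odorant, vomeronasal and trace-amine receptor genes, taken as silent in intestine. Spread over the unique exons of nuclear protein-coding genes, it equalled 39.1% to 63.7% of their counts in the Hypoxia libraries, 23.2% and 19.6% in Hypoxia+Nitrate 2 and 3, and 2.86% and 2.74% in Hypoxia+Nitrate 1 and 4. The mitochondrial genome took 64.9% and 50% of counts in Hypoxia+Nitrate 1 and 4, then 7.31% and 8.15% in 3 and 2, and 0.582% to 1.40% in Hypoxia, so the groups did not overlap. Counts at the ribosomal DNA locus made up 75.7%, 73.7%, 7.06% and 44.97% of the total for Hypoxia 1 to 4 and 2.33%, 21.96%, 4.95% and 3.42% across Hypoxia+Nitrate 1 to 4. The part of these differences in the results below was not tested.

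With TMM scaling, Khk and Pck1 were higher in every Hypoxia+Nitrate library than in every Hypoxia library. On that scale Fbp1 and G6pc exceeded every Hypoxia library only in Hypoxia+Nitrate 1 and 4. As a share of nuclear protein-coding counts, the Pck1 groups overlapped. Khk rose 28.6-fold and Pck1 44.5-fold (edgeR, adjusted p under 0.05), and Fbp1 and G6pc did not pass the test. These sizes depend on the scaling: with library size alone the log2 fold changes were 3.37 for Khk, 3.32 for Pck1 (adjusted p = 0.0361 and 0.0438, edgeR) and 0.91 for Fbp1 (adjusted p = 0.70, edgeR), so that Pck1 no longer exceeded Khk. Over all 35431 genes tested, 11.7% were called higher, and in 12% every Hypoxia+Nitrate value lay above every Hypoxia value. With library size alone 0.686% were called higher. The 2 calls among 4 genes are to be read against those shares. In bulk tissue, fewer cells of a type and less RNA per cell cannot be told apart.

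**Figure D1:**
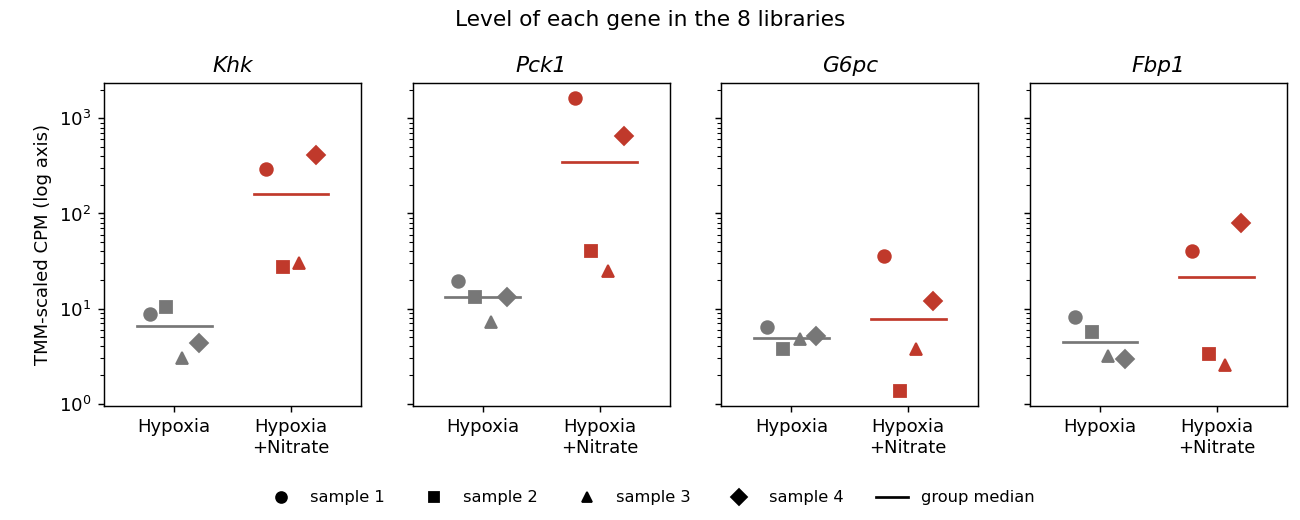
Levels of the 4 genes in each library, as CPM after TMM scaling on a log axis; symbols give the sample number and lines the median of 4 samples. The Khk and Pck1 groups do not overlap, while for G6pc and Fbp1 Hypoxia+Nitrate 2 and 3 lie among or below the Hypoxia samples.

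Khk held 130, 144, 57 and 72 counts in Hypoxia 1 to 4 and 4084, 478, 550 and 8408 counts across Hypoxia+Nitrate 1 to 4. As CPM (counts per 1e6 of the library size), scaled with TMM factors that align the bulk of genes between libraries, the Hypoxia values were 8.68, 10.5, 3.004 and 4.34 CPM. The Hypoxia+Nitrate values were 290.1, 27.2, 29.9 and 410.2 CPM. All Hypoxia+Nitrate libraries were above all Hypoxia libraries, and on this scale the mean of Hypoxia+Nitrate 1 and 4 was 12.3 times that of 2 and 3. The means were 6.62 ± 3.53 and 189.4 ± 192.0 CPM (SD, n = 4 per group). The log2 fold change of Khk was 4.84 (SE 1.02, edgeR quasi-likelihood adjusted p = 0.0102). Without Hypoxia 1 it was 4.99 and did not pass (adjusted p = 0.0503, edgeR), and without Hypoxia+Nitrate 1 and 4 it was 2.19 (adjusted p = 0.0182, edgeR). With counts divided by library size alone the Khk groups also did not overlap, at 6.54 to 10.7 CPM in Hypoxia and 63.9, 44.7, 63.5 and 161.1 CPM across Hypoxia+Nitrate 1 to 4. There Hypoxia+Nitrate 1 was level with 3, and the mean of 1 and 4 was 2.08 times that of 2 and 3.

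Pck1, the cytosolic carboxykinase that opens the path from oxaloacetate to glucose, held 292, 181, 136 and 218 counts in Hypoxia 1 to 4. It held 23084, 717, 459 and 13408 counts across Hypoxia+Nitrate 1 to 4. The CPM values were 19.5, 13.2, 7.17 and 13.1 in Hypoxia and 1640, 40.8, 24.98 and 654.1 in Hypoxia+Nitrate. Here too the groups did not overlap, and the spread within Hypoxia+Nitrate was the widest of the 4 genes, from 24.98 to 1640 CPM. The means were 13.2 ± 5.03 and 589.9 ± 758.8 CPM (SD, n = 4 per group). The log2 fold change of Pck1 was 5.48 (SE 1.33, edgeR adjusted p = 0.0162). It did not pass without Hypoxia 1, 3 or 4 (5.72, 5.12 and 5.65, adjusted p = 0.0618, 0.0583 and 0.0567, edgeR). Without Hypoxia+Nitrate 1 and 4 it was 1.39 (adjusted p = 0.0381, edgeR). As CPM of the nuclear protein-coding total alone, Hypoxia 1 (111.95) lay above Hypoxia+Nitrate 3 (82.9), so on that scale the Pck1 groups overlapped.

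Fbp1, the bisphosphatase that opposes phosphofructokinase, held 123, 78, 61 and 49 counts in Hypoxia 1 to 4 and 565, 58, 47 and 1621 counts across Hypoxia+Nitrate 1 to 4. The CPM values were 8.21, 5.67, 3.21 and 2.95 in Hypoxia and 40.1, 3.30, 2.56 and 79.1 in Hypoxia+Nitrate. Hypoxia+Nitrate 1 and 4 lay above every Hypoxia library, Hypoxia+Nitrate 2 lay within the Hypoxia range and Hypoxia+Nitrate 3 below it. The means were 5.01 ± 2.46 and 31.3 ± 36.4 CPM (SD, n = 4 per group), and the log2 fold change was 2.64 (SE 0.982), which missed the threshold (edgeR adjusted p = 0.0708). It passed without Hypoxia+Nitrate 2 (3.06, adjusted p = 0.0132, edgeR) or without Hypoxia+Nitrate 3 (3.22, adjusted p = 0.0184, edgeR), and was −0.69 without Hypoxia+Nitrate 1 and 4 (adjusted p = 0.377, edgeR). With library size alone only Hypoxia+Nitrate 4 (31.1 CPM) lay above the Hypoxia range of 3.57 to 11.4 CPM.

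G6pc, the catalytic subunit that releases glucose, held 97, 52, 90 and 85 counts in Hypoxia 1 to 4 and 501, 24, 69 and 245 counts across Hypoxia+Nitrate 1 to 4. The CPM values were 6.48, 3.78, 4.74 and 5.12 in Hypoxia and 35.6, 1.36, 3.76 and 11.95 in Hypoxia+Nitrate. Hypoxia+Nitrate 2 and 3 lay below all 4 Hypoxia libraries, and Hypoxia+Nitrate 1 and 4 above all of them. The means were 5.03 ± 1.12 and 13.2 ± 15.6 CPM (SD, n = 4 per group), and the log2 fold change was 1.38 (SE 0.807), which missed the threshold (edgeR adjusted p = 0.213). Among the alternatives run, it passed only without Hypoxia+Nitrate 2 (1.798, adjusted p = 0.0361, edgeR). The sign of the G6pc value followed the scaling: with library size alone the log2 fold change was −0.58 (adjusted p = 0.84, edgeR), and no Hypoxia+Nitrate library (2.24 to 7.97 CPM) lay above the Hypoxia range of 2.38 to 16.8 CPM. The lowest count, 24 in Hypoxia+Nitrate 2, has an exact 95% Poisson interval of 15.4 to 35.7, which covers counting error only.

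The Hypoxia counts of all 4 genes stood close to the background. Relative to the count expected from the receptor genes, Khk was at 3.99, 6.67, 1.53 and 2.35 times in Hypoxia 1 to 4 and Pck1 at 4.70, 4.39, 1.92 and 3.72 times. Fbp1 was at 3.99, 3.82, 1.73 and 1.69 times, and G6pc at 2.22, 1.79, 1.8 and 2.06 times. Across the 4 Hypoxia libraries the count per kb exceeded that of 80.5% to 99.4% of the receptor genes for Khk and 90.0% to 99.6% for Pck1. The ranges were 82.5% to 99.2% for Fbp1 and 86.2% to 93.1% for G6pc. The fold changes above are thus measured from levels near background.

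In Hypoxia+Nitrate the distance from background differed between the genes. Khk reached 767.4 and 984.6 times background in Hypoxia+Nitrate 1 and 4 and 21.003 and 25.9 times in 2 and 3, and Pck1 2273 and 822.8 times in 1 and 4 and 16.5 and 11.3 times in 2 and 3. Fbp1 was at 112.1 and 200.4 times in 1 and 4, and at 2.69 and 2.33 times in 2 and 3, within the range of its Hypoxia values. G6pc was at 70.1 and 21.4 times in 1 and 4, and at 0.785 and 2.41 times in 2 and 3, so in Hypoxia+Nitrate 2 its count did not exceed the background. Counts below the expected background were set to 0 in the subtraction, which applied to G6pc in Hypoxia+Nitrate 2. After the expected background was subtracted, none of the 4 genes passed in limma-voom, where 4.25% of 14972 genes were called higher. The log2 fold changes there were 3.43 for Khk (SE 1.33, adjusted p = 0.112, limma-voom), 2.98 for Pck1 (SE 1.37, adjusted p = 0.164), 0.82 for Fbp1 (SE 1.72, adjusted p = 0.765) and −1.13 for G6pc (SE 1.77, adjusted p = 0.678).

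**Figure D2:**
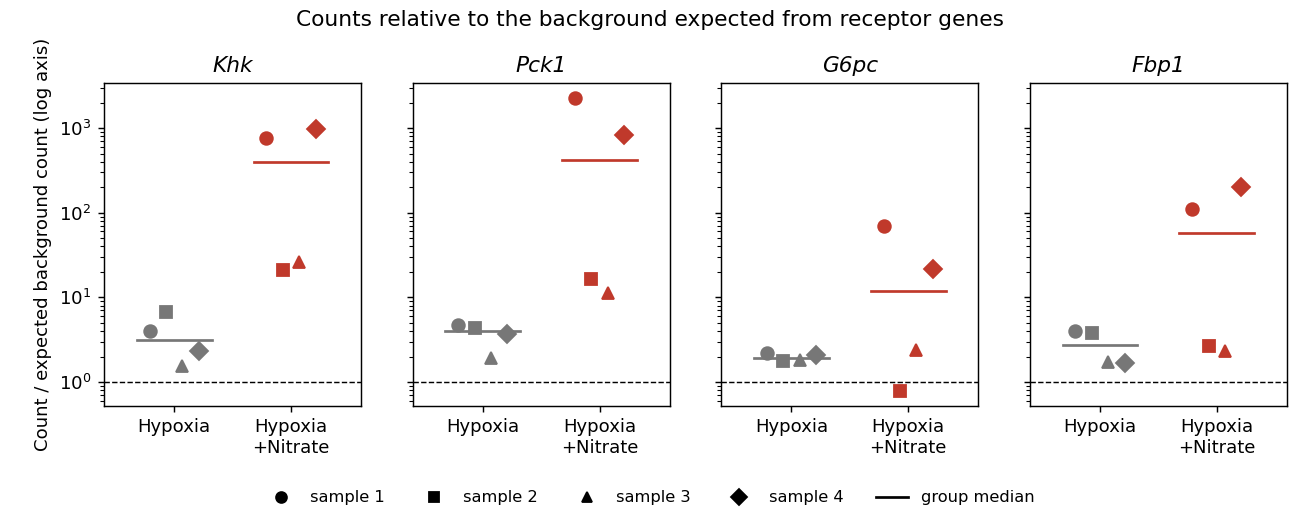
Count of each gene divided by the background count expected from receptor genes, on a log axis; the dashed line marks 1, symbols the sample number and solid lines the median of 4 samples. Hypoxia values lie between 1.53 and 6.67, and G6pc in Hypoxia+Nitrate 2 lies at 0.785.

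The split of the 4 genes into Khk with Pck1 and Fbp1 with G6pc also showed in ratios of counts within a library, which no scaling factor can change. Khk over G6pc was 1.34, 2.77, 0.633 and 0.847 in Hypoxia 1 to 4 and 8.15, 19.9, 7.97 and 34.3 across Hypoxia+Nitrate 1 to 4. Pck1 over G6pc was 1.51 to 3.48 in Hypoxia and 6.65 to 54.7 in Hypoxia+Nitrate. Khk over Fbp1 was 0.934 to 1.85 and 5.19 to 11.7, and Pck1 over Fbp1 2.23 to 4.45 and 8.27 to 40.9. In these 4 ratios the groups did not overlap. The ratios use the same counts that first gave the split, and the share of all gene pairs without overlap was not counted. Khk over Pck1 (0.33 to 0.796 and 0.177 to 1.20) and Fbp1 over G6pc (0.576 to 1.5 and 0.681 to 6.62) overlapped. Whether the changes of the genes differ was not tested, nor was the part of background in the Hypoxia ratios.

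**Figure D3:**
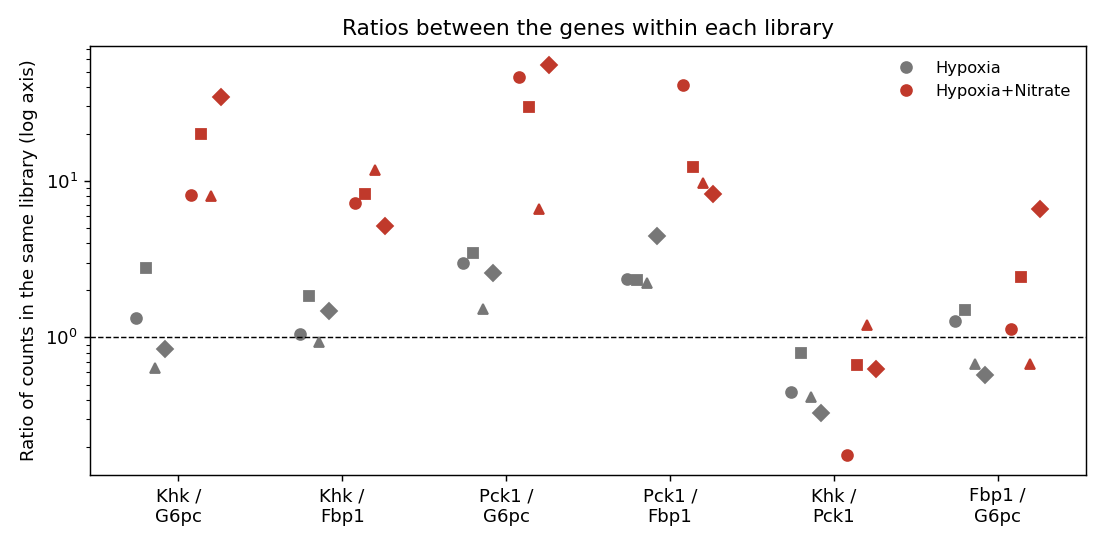
Ratio of the counts of pairs of genes within each library, on a log axis, for 4 Hypoxia and 4 Hypoxia+Nitrate libraries; the dashed line marks equal counts and symbols the sample number. Khk and Pck1 over G6pc or Fbp1 do not overlap between groups, from 0.633 to 4.45 in Hypoxia and from 5.19 to 54.7 in Hypoxia+Nitrate.

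Divided by exonic length (CPM per kb, RPKM), the mean levels in Hypoxia were 3.86 ± 1.47 RPKM for Pck1, 3.69 ± 1.96 for Khk, 2.95 ± 1.45 for Fbp1 and 2.08 ± 0.462 for G6pc (SD, n = 4). Each neighbour in this order overlapped with the next. In Hypoxia+Nitrate the means were 172.0 ± 221.3 RPKM for Pck1, 105.4 ± 106.9 for Khk, 18.4 ± 21.4 for Fbp1 and 5.45 ± 6.47 for G6pc. Pck1 led in Hypoxia+Nitrate 1 (478.2 RPKM against 161.5 for Khk) and Khk in the other 3, for example 228.2 against 190.7 RPKM in Hypoxia+Nitrate 4. Fbp1 and G6pc were below both in each of the 4 libraries, and did not separate from each other, at 1.503 and 1.56 RPKM in Hypoxia+Nitrate 3.

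Other genes of fructose uptake and use moved with Khk in part. Of 11 genes on that list 5 rose, 0 fell and 6 did not pass, with a median log2 fold change of 2.15 against −0.58 over all genes tested, here and for the lists below. The sizes given for single genes of the lists are log2 fold changes. Counts passing in other settings are to be read against the share of all genes called higher there. That share was 0.686% with library size alone and 4.25% after background subtraction. Tkfc, the triokinase that phosphorylates glyceraldehyde, rose by 4.06, and Sord, which makes fructose from sorbitol, by 4.16. Txnip, a sugar-responsive inhibitor of glucose uptake, rose by 3.83. About 80.0% of the exonic length of Tkfc and 80.6% of that of Txnip is free of other genes, so part of their counts is uncertain.

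The transporters that bring fructose in and out did not pass. Slc2a5, the apical fructose transporter GLUT5, had 3.27, 8.44, 5.43 and 4.88 CPM in Hypoxia 1 to 4 and 39.7, 1.48, 2.83 and 35.6 CPM across Hypoxia+Nitrate 1 to 4. As with G6pc, Hypoxia+Nitrate 1 and 4 were above all Hypoxia libraries and 2 and 3 below all of them (log2 fold change 1.85, SE 0.906, edgeR adjusted p = 0.146). Slc2a2, the basolateral transporter GLUT2, had a log2 fold change of 2.15 (adjusted p = 0.0912, edgeR), and Mlxipl, the carbohydrate-response factor ChREBP, 1.52 (adjusted p = 0.12, edgeR). With library size alone the median of the list was 0.12 and 2 genes passed, and after background subtraction 1 passed, Txnip.

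Of 14 genes that carry out or feed gluconeogenesis 8 rose, 1 fell and 5 did not pass, with a median of 2.62. The carriers of oxaloacetate out of mitochondria rose: the malate dehydrogenases Mdh1 and Mdh2 by 5.06 and 5.48, the aspartate aminotransferases Got1 and Got2 by 4.12 and 1.92, and the oxoglutarate carrier Slc25a11 by 3.04. Slc37a4, which moves glucose 6-phosphate to the phosphatase, rose by 2.60 (adjusted p = 0.0468, edgeR), although its groups overlapped. Pcx, pyruvate carboxylase, had a log2 fold change of 0.87 (adjusted p = 0.294, edgeR). After background subtraction 0 of 13 genes of this list passed in limma-voom, with a median of 2.52, and with library size alone 4 passed, with a median of 0.91. The members Pck1, Fbp1 and G6pc are part of these counts.

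Relatives of the 3 gluconeogenic members are given beside them, with no test of a difference between relatives. Pck2, the mitochondrial carboxykinase, was at 1.64 ± 0.177 RPKM in Hypoxia and 1.48 ± 0.692 in Hypoxia+Nitrate (SD, n = 4) with a log2 fold change of −0.15 that missed the threshold (SE 0.44, edgeR adjusted p = 0.814). Fbp2, known as the muscle bisphosphatase, ends 6330 bp from Fbp1 on chromosome 13 (62836877 to 62858422). It held 2.60, 12.5, 2.16 and 1.99 CPM in Hypoxia 1 to 4 and 295.8, 28.996, 20.1 and 558.5 CPM across Hypoxia+Nitrate 1 to 4. The Fbp2 groups did not overlap, and the gene rose by 5.55 (SE 1.25, edgeR adjusted p = 0.0125). Per kb, Fbp2 over Fbp1 was 0.367, 2.55, 0.779 and 0.78 in Hypoxia 1 to 4 and 8.54, 10.2, 9.12 and 8.18 across Hypoxia+Nitrate 1 to 4. No background was taken off these ratios. In Hypoxia+Nitrate 2 and 3 Fbp1 was at only 2.69 and 2.33 times background, against 27.4 and 21.3 times for Fbp2. The ratios there are therefore lowered by background, and their likeness across libraries cannot be read from them.

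G6pc2, the islet form of the phosphatase subunit, fell by 4.16 on the log2 scale (SE 1.21, edgeR adjusted p = 0.0304), with 2.47, 2.91, 2.58 and 4.82 CPM in Hypoxia and 0, 0, 0.327 and 0.341 CPM in Hypoxia+Nitrate. Its Hypoxia counts had a median of 1.44 times the expected background, so expression there was near background. For G6pc3, the widely expressed form, the value of 1.42 missed the threshold (SE 0.717, edgeR adjusted p = 0.157).

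**Figure D4:**
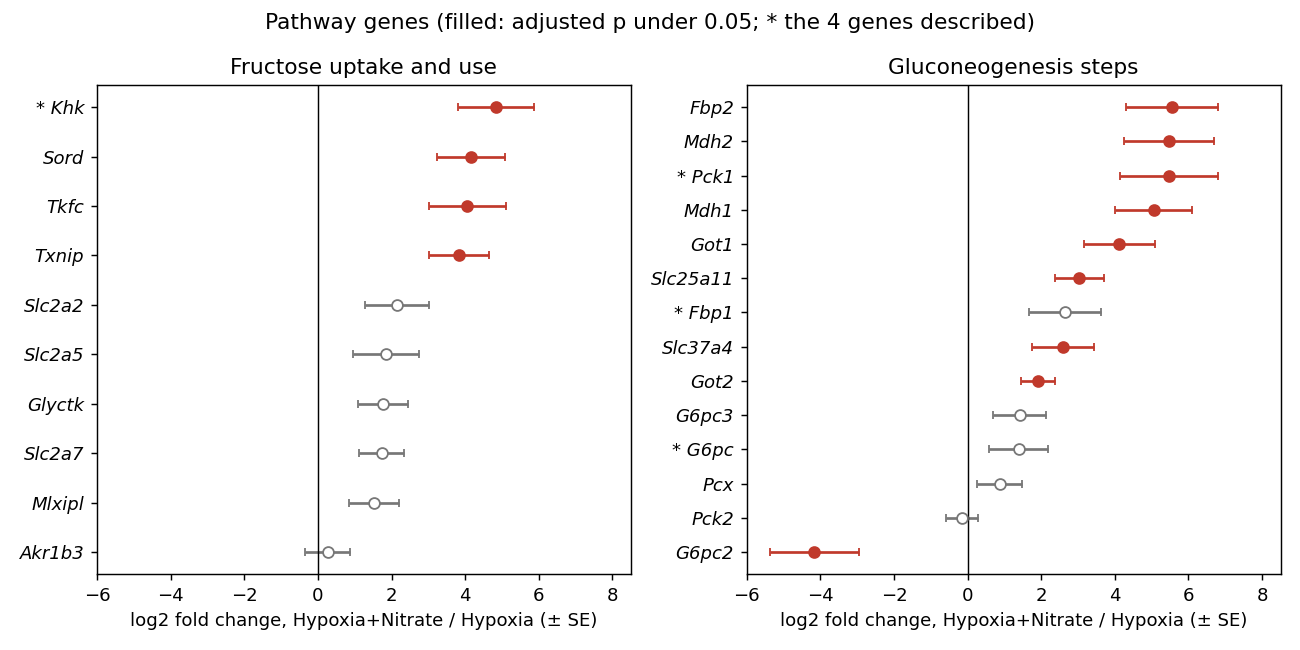
Log2 fold change of Hypoxia+Nitrate against Hypoxia with its standard error for 10 genes of fructose uptake and use and 14 of gluconeogenesis, 4 samples per group; filled points passed an adjusted p of 0.05 in edgeR. Khk (4.84) and Fbp2 (5.55) head the genes shown, and G6pc2 (−4.16) is the fall.

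Neighbouring steps are given by their counts. Of 8 reversible enzymes shared with glycolysis 6 rose and 0 fell (median 4.24; 4 with library size alone and 1 after background subtraction), the leading ones by p being Pgam1 (3.63), Tpi1 (4.72), Gpi1 (4.38), Pgk1 (4.95) and Eno1 (4.10). Of 14 enzymes and regulators of the glycolytic steps that run opposite to glucose synthesis 3 rose and 1 fell. Their median was 0.34, and it turned to −0.36 with library size alone and −0.02 with upper-quartile factors. After background subtraction the median of the 11 genes fitted was 1.13, and 0 passed in limma-voom. Not every regulator on this list favours glycolysis. Pkm and Pklr, the pyruvate kinases, rose by 5.09 and 4.78, although the Pklr groups overlapped. Pfkl, a phosphofructokinase, rose by 2.18, while Hk3, a hexokinase of blood cells, fell by 2.42 on the log2 scale. The Hypoxia counts of Hk3 had a median of 1.30 times the expected background, so its fall starts near background. Of 13 genes that supply carbon to glucose 8 rose and 0 fell (median 2.13; 4 passed with library size alone and 0 in limma-voom after background subtraction). Gpt, alanine aminotransferase, rose by 5.88, Glud1, glutamate dehydrogenase, by 5.20, and the glycerol 3-phosphate dehydrogenase Gpd1 by 5.52. The lactate dehydrogenases Ldha and Ldhb rose by 5.20 and 2.13.

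Of 19 transcriptional regulators known from gluconeogenesis 7 rose and 0 fell (median 1.28). Hnf4a and Hnf4g, nuclear receptors of gut epithelium, rose by 3.94 and 3.04, and Creb3l3, a membrane-bound factor of liver and gut, by 4.38. Cebpb rose by 3.25 and Crtc2, a CREB coactivator, by 1.92. For Creb3l3 and Crtc2 the groups overlapped. Klf15 and Sik1, a kinase that restrains CRTC proteins, rose by 1.38 and 1.28. Ppargc1a, the coactivator PGC-1alpha, did not pass (1.21, edgeR adjusted p = 0.14), nor did Foxo1 (1.01, edgeR adjusted p = 0.0885). With library size alone 0 of the 19 passed, and after background subtraction 0 passed higher and 1, Onecut1, was lower (−6.58, limma-voom adjusted p = 0.00877). Onecut1 had 0 counts in Hypoxia+Nitrate 1 and 3, and the subtraction set counts below the expected background to 0. Only 47.2% of the exonic length of Onecut1 is free of other genes.

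Markers of enterocytes, the absorptive cells in which these enzymes are known, moved with Khk and Pck1. All 14 rose, with a median of 5.09, among them the brush border peptidase Anpep (6.41), the phosphatase Alpi (5.49) and the epithelial adhesion gene Epcam (4.67). In 10 of the 14 every Hypoxia+Nitrate value lay above every Hypoxia value, and in the others the groups overlapped. With library size alone 6 passed, and after background subtraction 2. Their summed level ran from 96.8 to 639.8 CPM in Hypoxia and from 935.9 to 35303 CPM in Hypoxia+Nitrate. In Hypoxia 3 and 4 that sum was only 1.69 and 1.81 times background, so the labelled tissue was weakly marked there. Hypoxia+Nitrate 1 and 4 held 34144 and 35303 CPM, and 2 and 3 held 1771 and 935.9 CPM, and on the same TMM scale the 4 genes too were higher in 1 and 4 than in 2 and 3. The part of enterocyte content in the results for the 4 genes was not tested.

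Set against the enterocyte markers of the same library, no gene of the 4 had all Hypoxia+Nitrate libraries above all Hypoxia libraries. For every 1000 marker counts, Khk stood at 34.7, 16.4, 31.0 and 44.5 in Hypoxia 1 to 4 and 8.497, 15.3, 31.99 and 11.6 across Hypoxia+Nitrate 1 to 4. Pck1 stood at 20.6 to 134.7 and 18.5 to 48.0, again with overlap. Fbp1 (8.87 to 33.2 and 1.18 to 2.73) and G6pc (5.91 to 52.5 and 0.339 to 4.01) were lower in all Hypoxia+Nitrate libraries than in all Hypoxia libraries. With expected background taken off genes and markers alike, Fbp1 was at 7.05 to 34.3 and 1.17 to 2.23, and G6pc at 2.82 to 60.5 and −0.216 to 2.44. Fabp2 and Apoa4 together made up 58.5% to 72.5% of the marker counts in Hypoxia+Nitrate and 46.3%, 61.6%, 8.82% and 14.3% in Hypoxia 1 to 4, and only 30.2% of the exonic length of Apoa4 is free of other genes. Per 1000 counts of the other 12 markers, a choice made after seeing the data, Khk stood at 34.0 to 64.6 in Hypoxia and 27.3 to 77.02 in Hypoxia+Nitrate, and Pck1 at 53.6 to 157.1 and 64.3 to 154.1. Fbp1 (23.1 to 61.1 and 3.77 to 8.05) and G6pc (15.4 to 61.2 and 1.22 to 9.66) again did not overlap. These ratios carry no test, and they rest in Hypoxia on few counts above background. The share of all genes without overlap on this scale was not counted.

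Liver and kidney are known to express all 4 genes. Of 10 liver markers 0 passed in either direction (edgeR), Cps1 and Apoh had an unadjusted p under 0.05 (0.0311 and 0.0482, edgeR), and 2 had a negative log2 fold change (median 0.92). Their sum ran from 83.5 to 228.4 CPM in Hypoxia and from 153.4 to 324.5 CPM in Hypoxia+Nitrate, and none was at 0 in any library. Over background, the liver sum was 3.28 to 8.09 times in Hypoxia and 11.8 to 59.98 times in Hypoxia+Nitrate, with no overlap, and its part in the results for the 4 genes was not tested. Of 7 kidney markers tested 0 rose and 1, Slc5a2, fell (median −2.70). Their sum was 29.4 to 51.8 CPM in Hypoxia and 3.20 to 20.5 CPM in Hypoxia+Nitrate, with Umod, Slc34a1, Slc22a6 and Kap at 0 counts in Hypoxia+Nitrate 1 and 4. Over background, the kidney sum was only 1.42 to 1.81 times in Hypoxia and 0.643 to 1.20 times in Hypoxia+Nitrate. Of 9 exocrine pancreas markers 0 rose and 3 fell (Cela2a, Try4 and Cela3b), and the first 2 of these were at 0 counts in all Hypoxia+Nitrate libraries. The pancreas sum was 1.09 to 1.56 times background in Hypoxia and 1.37 to 2.81 times in Hypoxia+Nitrate. The kidney and pancreas falls thus start from levels near background. Of 5 fat markers 1 rose, of 6 immune markers 3 rose, and all 6 smooth muscle markers rose (median 2.63), none of which passed with library size alone.

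The genes with profiles most like each member were found among 17118 nuclear protein-coding genes, by the mean absolute difference of centred log2 CPM over the 8 libraries. For Khk they were Prxl2b (0.152), the glycolytic enzyme Tpi1 (0.167) and Txndc17 (0.178), where the median gene differed by 2.08. For Pck1 they were the brush border genes Alpi (0.405), Ace (0.412) and Muc3 (0.419). For Fbp1 they included Trappc10 (0.319) and Acaa1b (0.323). For G6pc they were Gtpbp6 (0.268, with 60.5% of its exonic length free of other genes), the integrin Itga3 (0.313) and Slc47a1 (0.335). Among the 4 genes, the closest pair, Khk and Pck1, differed by 0.641 and the farthest, Khk and G6pc, by 1.79. Ranked by closeness among the 17118 genes, Khk was number 106 for Pck1, and Pck1 was number 522 for Khk. G6pc was number 6173 for Khk, and Khk was number 13716 for G6pc. These values describe 8 libraries that share their group difference and depth.

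**Figure D5:**
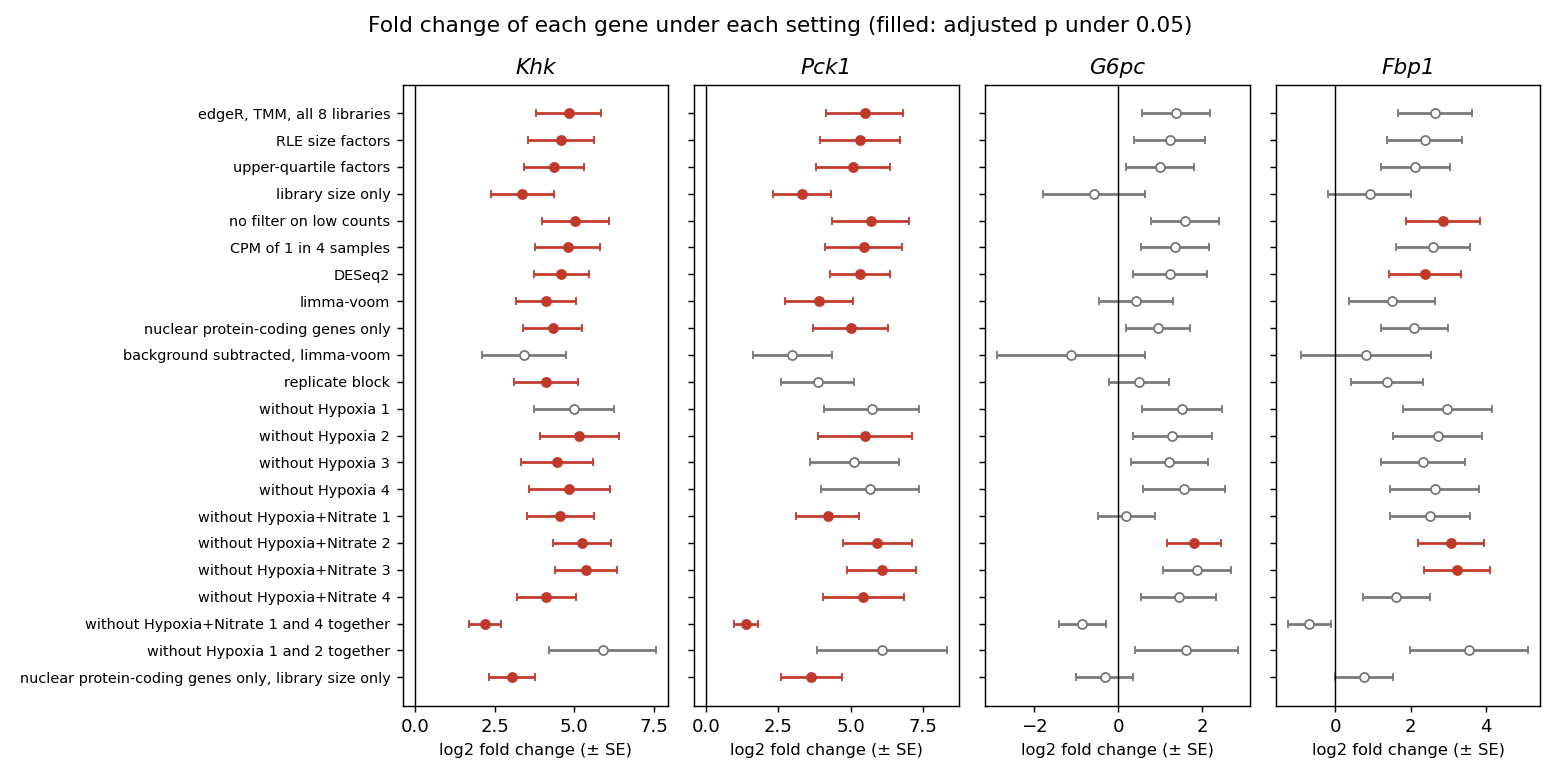
Log2 fold change with its standard error for the 4 genes under each scaling, filter, tool and choice of libraries; filled points passed an adjusted p of 0.05. Khk and Pck1 stay above 0 in every setting shown, from 1.39 to 6.07, and G6pc ranges from −1.13 to 1.89.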

How the data were processed

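Per the labels' protocols, total RNA came from a TRIzol extraction and went into a stranded library kit; per the submitters' processing notes, HISAT, featureCounts 1.5.0-p3 and DESeq 1.8.3 were used with build GRCm38. Annotation, strand setting and duplicate handling: not given in the sources used here. Raw read counts per gene were what the authors deposited, and the per-sample files equal the joint table. Of 55421 gene IDs, 55240 matched GENCODE M21.

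Hypoxia+Nitrate was tested against Hypoxia (4 samples each) over all genes with edgeR 4.0.16 in R 4.3.3: filterByExpr (minimum count 10, total 15), TMM, quasi-likelihood test, Benjamini-Hochberg adjustment over all tested genes at 0.05. Standard errors came from the fold change and its F statistic. Alternatives used other scalings and filters, DESeq2 1.42.0, limma 3.58.1 (voom), a replicate block, background subtraction (receptor-gene counts per kb times a gene's unique exonic length) and fewer libraries. Counts that fell below 0 in that subtraction were set to 0 before limma-voom. Scripts were tested on simulated data.

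The 4 genes, the lists and the background estimate were chosen with earlier results of these data known. Named genes were the members, up to 5 genes per list with the lowest p among those tested, any that fell, and the 3 most similar profiles per member; a few further relatives and regulators were named after their values were seen. Some genes that the rule names are not reported here by name. Aldoa was left out because its name has 2 IDs.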

Additional observations from a re-analysis of the deposited data

Results flagged for a closer look

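Among 78 groups of 4 values checked, 8 held a library far from the other 3. The limit used gives about 1 in 20 by chance for independent, normally distributed values. The groups here reuse the same counts and were not put on a log scale, so the 8 cannot be read against that rate. With library size as the only scaling, Hypoxia+Nitrate 4 stood above the other Hypoxia+Nitrate libraries for Khk (161.1 CPM against 44.7 to 63.9) and for Fbp1 (31.1 CPM against 5.42 to 8.84). Relative to enterocyte markers, Fbp1 in Hypoxia 2 was low, at 8.87 per 1000 marker counts against 30.3 to 33.2. The ratio of Pck1 to Fbp1 counts was high in Hypoxia 4 (4.45 against 2.23 to 2.37) and in Hypoxia+Nitrate 1 (40.9 against 8.27 to 12.4). Hypoxia 2 had the highest summed level of the fructose genes, 176.5 CPM against 92.8 to 103.2. Hypoxia 1 had the highest summed liver markers, 228.4 CPM against 83.5 to 87.2. With TMM scaling Hypoxia 1 also held the highest Hypoxia CPM of Pck1, Fbp1 and G6pc. With library size alone Hypoxia 3 held the highest, at 25.4, 11.4 and 16.8 CPM. A link between these genes and the liver markers was not tested. Smooth muscle markers were highest in Hypoxia+Nitrate 2, at 2946 CPM against 1342 to 1495.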

How the results depend on the processing

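The fold changes of Khk and Pck1 kept their direction under all alternatives run. They no longer passed after background subtraction (3.43 and 2.98), without Hypoxia 1 (adjusted p = 0.0503 and 0.0618, edgeR) or without Hypoxia 1 and 2 (5.90 and 6.07, adjusted p = 0.0675 and 0.136, edgeR). Pck1 also did not pass without Hypoxia 3 or 4 (adjusted p = 0.0583 and 0.0567, edgeR) or with the replicate block (adjusted p = 0.0568, edgeR). Leaving out each library in turn gave 4.13 to 5.38 for Khk and 4.197 to 6.07 for Pck1. G6pc turned negative with library size only (−0.58), after background subtraction (−1.13), without Hypoxia+Nitrate 1 and 4 (−0.85) and with library size of nuclear protein-coding genes (−0.33, an alternative added after seeing the data); leaving out libraries in turn gave 0.19 to 1.89. Fbp1 passed with no filter (2.86) and in DESeq2 (2.38), was −0.69 without Hypoxia+Nitrate 1 and 4, and ran from 1.62 to 3.22 with each library left out. The cause of these shifts was not tested.

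Over all genes, 4163 were called higher and 4490 lower. Higher calls numbered 243 with library size only, 636 after subtraction, 624 without Hypoxia 1 and 2, 1043 with library size of nuclear protein-coding genes and 676 to 5974 with each library left out. Lower calls numbered 1557 with library size only, 11654 with no filter, 10038 in DESeq2, 11948 in limma-voom, 2939 with nuclear protein-coding genes, 1384 after subtraction, 7394 without Hypoxia+Nitrate 1 and 4 and 1256 to 16480 with each library left out. Of all calls, higher ones made up 48.1% under TMM scaling, against 35% (RLE), 34.4% (upper quartile), 13.5% (library size only) and 20.7% (library size of nuclear protein-coding genes).

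The labels do not say whether the sample numbers pair the groups. Correlations of same-numbered deviations were 0.051, −0.18, 0.18 and −0.05. These values cannot decide it, because the libraries also differ in background and depth. With the replicate block 2176 genes were higher and 2615 lower, Khk was at 4.11 and Pck1 at 3.85 (adjusted p = 0.044 and 0.0568, edgeR).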
